A study of Mus musculus with 10 samples.

Results

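The 10 genes described here encode the RNA and protein core of telomerase (Terc, Tert, Dkc1, Nhp2 and Nop10) and the shelterin proteins that coat telomeres (Terf1, Terf2, Tinf2, Pot1a and Acd). They are 10 of the 21225 probe sets of the array, each probe set standing for 1 Entrez gene. The group was chosen because Terc fell about 4-fold on powdered chow, so the diet differences of the 10 genes are given as a description, with no test. Expression was measured in the forebrain at embryonic day 15.5, on 1 Affymetrix Mouse Gene 1.0 ST array per embryo. The embryos of 5 dams that ate powdered chow (Bioserv F3197, a purified diet) were set against those of 5 dams that ate pelleted chow (Teklad 2918). All dams were C57Bl/6J and started on their diet at first breeding, and all sires carried Ts1Cje, a chromosomal translocation that models Down syndrome. Only wild-type embryos were profiled, 1 from each of 5 litters per diet, so both groups shared genotype, stage and a dam without the translocation.

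The animals on powdered chow are numbered 87, 88, 108, 111 and 115, and those on pelleted chow 05, 07, 09, 11 and 15. The labels give no sex, litter, slide or scan date, so a difference in preparation between the groups cannot be told apart from diet. Values are the deposited log2 expression values, in which a difference of 1 is a 2-fold change, and differences are powdered minus pelleted chow. All 8 forebrain markers lay above the array's median on all 10 arrays. Of 7 hindbrain and cord markers, 0 did so, though Gbx2 lay above the median on 9 arrays, and 3 lay under the lower quartile on every array. The median probe set lay between 7.82 and 7.86 on the 10 arrays, and the lower quartile between 6.33 and 6.53. None of the 10 telomere genes fell under the lower quartile on any array, and 9 of them lay above the median on all 10 arrays. Beyond this placing against the median and the lower quartile, levels of different probe sets are not compared, because each probe binds with its own efficiency. The same limit holds for the placing.

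Telomeres are the repeated DNA ends of chromosomes, which shorten with each round of replication because the replication machinery cannot copy the last stretch. Telomerase adds the repeats back: Tert is the reverse transcriptase and Terc the RNA that carries its template. Terc ends in an H/ACA domain, a fold shared with small nucleolar RNAs (snoRNAs) that guide pseudouridylation, and is bound there by dyskerin (Dkc1), Nhp2 and Nop10, which stabilize it. Shelterin hides chromosome ends from the DNA damage response. Terf1 and Terf2 bind the double-stranded repeats, Pot1a binds the single-stranded end, Acd (TPP1) ties Pot1a to the complex and helps recruit telomerase, and Tinf2 (TIN2) joins these proteins together. In rodents Pot1 is duplicated into Pot1a and Pot1b.

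The promoters of the H/ACA proteins and of Tert are shown because the 3 H/ACA protein genes were each higher on powdered chow without overlap, while Tert was not. Each line holds the 250 bases before the RefSeq start site on build GRCm38.p6, read 5′ to 3′ on the plus strand. The regions are chrX:75095604-75095853 for Dkc1, chr11:51619523-51619772 for Nhp2, chr2:112261676-112261925 for Nop10 and chr13:73626661-73626910 for Tert. Capitals mark a GC box (GGGCGG or CCGCCC) or a CCAAT box (CCAAT or ATTGG).
Dkc1: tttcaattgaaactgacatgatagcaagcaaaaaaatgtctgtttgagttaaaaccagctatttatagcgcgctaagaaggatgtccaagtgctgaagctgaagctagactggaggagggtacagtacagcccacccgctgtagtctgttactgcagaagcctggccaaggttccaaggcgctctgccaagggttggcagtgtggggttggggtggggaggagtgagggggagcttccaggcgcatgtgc
Nhp2: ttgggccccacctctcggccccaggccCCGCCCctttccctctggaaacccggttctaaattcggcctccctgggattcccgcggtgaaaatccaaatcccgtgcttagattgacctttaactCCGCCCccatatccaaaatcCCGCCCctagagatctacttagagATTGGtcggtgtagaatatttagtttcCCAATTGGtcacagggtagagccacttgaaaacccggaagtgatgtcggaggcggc
Nop10: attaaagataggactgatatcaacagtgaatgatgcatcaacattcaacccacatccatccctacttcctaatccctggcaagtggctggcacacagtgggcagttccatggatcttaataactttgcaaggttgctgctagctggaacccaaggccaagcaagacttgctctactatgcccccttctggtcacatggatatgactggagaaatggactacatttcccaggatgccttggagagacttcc
Tert: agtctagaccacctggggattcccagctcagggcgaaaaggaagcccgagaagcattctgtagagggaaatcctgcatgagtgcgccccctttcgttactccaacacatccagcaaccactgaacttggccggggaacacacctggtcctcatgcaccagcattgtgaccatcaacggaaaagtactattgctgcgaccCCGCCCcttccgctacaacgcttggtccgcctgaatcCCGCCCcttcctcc
A promoter entry was found for 8 of the 10 genes, leaving out Terc and Terf1. The motifs searched on both strands were the E-box CACGTG, which Myc and Max bind, the GC box and the CCAAT box. Tert held 2 GC boxes. Nhp2 held 3 GC boxes and 3 CCAAT boxes, of which 2 overlap on opposite strands in CCAATTGG. Dkc1 and Nop10 held no match to any of the motifs, and no E-box stood in any of the 8 promoters. Among 32851 mouse promoters of the same length, 6.02% held the E-box, 32.7% the GC box and 33.8% the CCAAT box. The 3 genes that were higher together therefore did not share a match to these letters in this window.

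Terc, the telomerase RNA (chromosome 3), was far lower in powdered chow-exposed forebrains. Its log2 values were 7.74, 7.76, 7.75, 7.80 and 7.75 on powdered chow (animals 87, 88, 108, 111 and 115), against 9.76, 9.95, 9.62, 10.12 and 9.60 on pelleted chow (animals 05, 07, 09, 11 and 15). Every powdered chow value lay below every pelleted chow value, and the groups were 1.80 apart. The means were 7.76 ± 0.02 and 9.81 ± 0.22 (SD, n = 5 each), a difference of -2.05 (SE 0.09), or 4.14-fold lower on powdered chow. Of all 21225 probe sets, 1, which has no symbol here, fell further. Terc lay above the array's median on the 5 pelleted chow arrays and under it on the 5 powdered chow arrays.

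The spread of Terc also differed in size between the diets. Its 5 powdered chow values spanned 0.07, with an SD of 0.025, and only 1.18% of probe sets had a powdered chow SD as small or smaller. Its 5 pelleted chow values spanned 0.52, with an SD of 0.223, and 91.7% of probe sets had a pelleted chow SD at or below that. No other gene of the 10 had so unequal a pair of SDs. The next most unequal was Dkc1, with 0.070 on powdered chow and 0.138 on pelleted chow. Because whole forebrain was measured, fewer cells that express a gene and less RNA per cell cannot be told apart for Terc or any other gene.

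**Figure D1:**
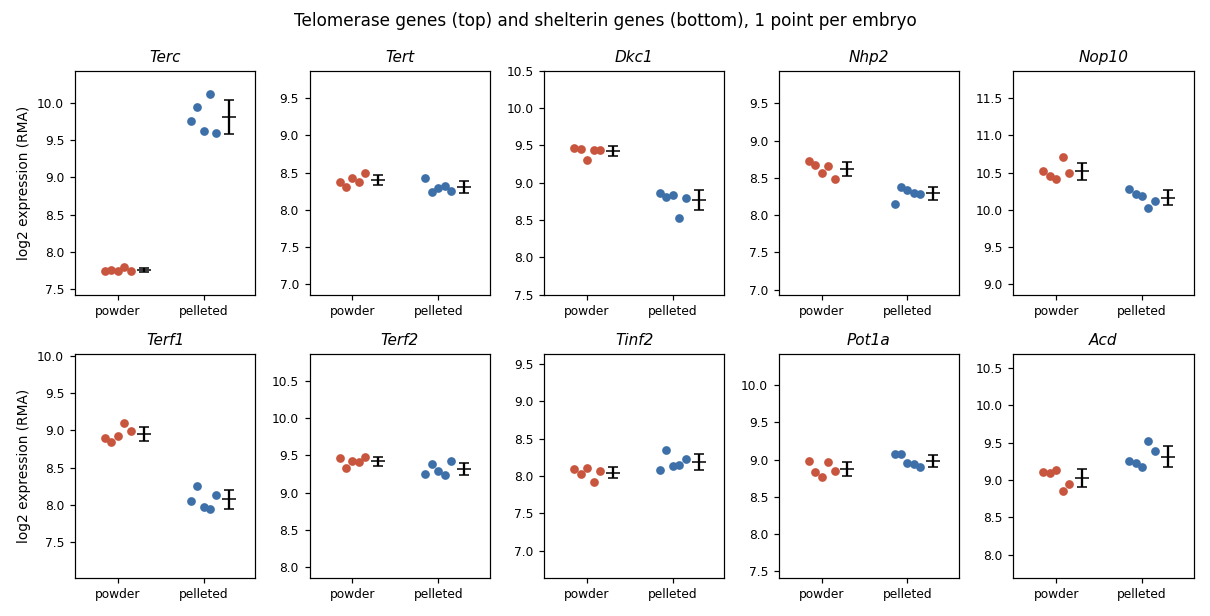
Log2 expression of the 10 genes, 1 point per embryo, with powdered chow (red) left of pelleted chow (blue) and bars for the mean ± SD of 5 embryos; each vertical axis spans 3 log2 units. Terc lies between 7.74 and 7.80 on powdered chow and between 9.60 and 10.12 on pelleted chow, while Dkc1, Nhp2, Nop10 and Terf1 lie higher on powdered chow.

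Tert, the catalytic subunit (chromosome 13), overlapped between the diets. It had 8.38, 8.31, 8.43, 8.37 and 8.49 on powdered chow, against 8.43, 8.24, 8.30, 8.32 and 8.25 on pelleted chow. The pelleted chow animals 05 and 11 lay within the powdered chow values. The difference was 0.09 (SE 0.06), with means of 8.40 ± 0.07 and 8.31 ± 0.07 (SD, n = 5 each).

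The mRNAs of the 3 proteins that hold the H/ACA domain of Terc were all higher on powdered chow, opposite in direction to Terc. Protein was not measured. Dkc1, the pseudouridine synthase dyskerin (chromosome X), had 9.47, 9.45, 9.30, 9.44 and 9.44 on powdered chow, against 8.86, 8.81, 8.84, 8.53 and 8.80 on pelleted chow. The groups were 0.43 apart, and the lowest value of each diet stood off from its other 4 (animal 108 on powdered chow and animal 11 on pelleted chow). The means were 9.42 ± 0.07 and 8.77 ± 0.14 (SD, n = 5 each), a difference of 0.65 (SE 0.07), or 1.57-fold higher.

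Nhp2 (chromosome 11) had 8.72, 8.67, 8.57, 8.66 and 8.48 on powdered chow, against 8.15, 8.38, 8.34, 8.30 and 8.28 on pelleted chow. The groups did not overlap but came within 0.10 of each other, at animal 115 on powdered chow and animal 07 on pelleted chow. Its difference was 0.33 (SE 0.06), or 1.25-fold. Nop10 (chromosome 2) had 10.52, 10.45, 10.41, 10.71 and 10.49 on powdered chow, against 10.28, 10.21, 10.19, 10.02 and 10.12 on pelleted chow. Here the gap was 0.13, and the difference of 0.35 (SE 0.07), or 1.28-fold, was close to that of Nhp2 and smaller than that of Dkc1.

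In shelterin the largest difference was that of Terf1 (TRF1, chromosome 1), which binds double-stranded repeats and helps replication forks pass them. Terf1 had 8.90, 8.85, 8.92, 9.10 and 8.99 on powdered chow, against 8.06, 8.26, 7.97, 7.95 and 8.14 on pelleted chow. All 5 powdered chow values lay at least 0.58 above the highest pelleted chow value. The means were 8.95 ± 0.10 and 8.08 ± 0.13 (SD, n = 5 each), a difference of 0.88 (SE 0.07), or 1.83-fold. Its paralog Terf2 (TRF2, chromosome 8), which folds the chromosome end into a protective loop, had 9.46, 9.33, 9.42, 9.41 and 9.48 on powdered chow, against 9.25, 9.39, 9.29, 9.24 and 9.42 on pelleted chow. Those groups overlapped, with a difference of 0.11 (SE 0.06).

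Acd (chromosome 8), the telomerase-recruiting subunit, was lower on powdered chow. It had 9.11, 9.10, 9.13, 8.86 and 8.95 on powdered chow, against 9.26, 9.23, 9.18, 9.52 and 9.39 on pelleted chow, and the groups were only 0.06 apart. The means were 9.03 ± 0.12 and 9.32 ± 0.14 (SD, n = 5 each), a difference of -0.29 (SE 0.08), or 1.22-fold lower. The 2 animals with the lowest powdered chow values were 111 and 115, and the 2 with the highest pelleted chow values were 11 and 15.

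Tinf2 and Pot1a, like Terf2, overlapped between the diets. Tinf2 (chromosome 14) had 8.10, 8.03, 8.11, 7.92 and 8.07 on powdered chow, against 8.08, 8.35, 8.13, 8.15 and 8.23 on pelleted chow, a difference of -0.14 (SE 0.06). Only the pelleted chow animal 05 lay within the powdered chow values. Pot1a (chromosome 6) had 8.98, 8.83, 8.76, 8.97 and 8.85 on powdered chow, against 9.07, 9.07, 8.95, 8.94 and 8.90 on pelleted chow, a difference of -0.11 (SE 0.06). Its values interleaved over 3 pelleted chow and 2 powdered chow animals.

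**Figure D2:**
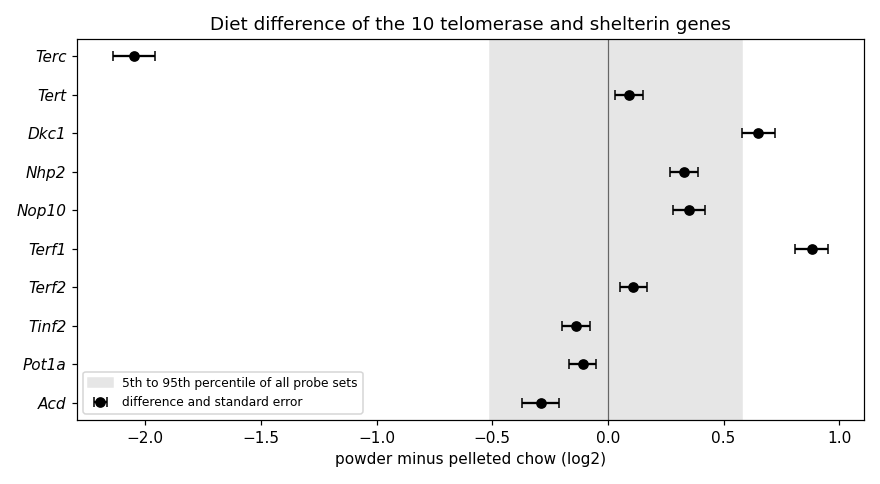
Diet difference (powdered minus pelleted chow, log2) of each of the 10 genes with its standard error; the grey band holds the middle of all 21225 probe sets, from the 5th to the 95th percentile. Terc (-2.05) lies left of the band and Dkc1 (0.65) and Terf1 (0.88) lie right of it, while the other 7 lie inside.

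Counted by limma at an adjusted p under 0.05 over all probe sets, 4 of the 10 genes were higher (Dkc1, Nhp2, Nop10 and Terf1) and 2 lower (Terc and Acd), beside 21.2% of all probe sets higher and 21.8% lower. At the limits of the study's methods, with stricter p-values and a fold change above 1.5, 2 were higher (Dkc1 and Terf1) and 1 lower (Terc), beside 4.84% and 3.43% of all probe sets. The diets did not overlap in the same 4 higher and 2 lower genes, beside 16.9% and 15.7% of all probe sets. Nothing is read from these counts, since the genes were chosen on this contrast. The median difference was 0.33 over the telomerase genes and -0.11 over the shelterin genes, beside -0.02 over all probe sets.

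Both remaining shelterin genes were measured. Terf2ip (RAP1), which binds Terf2 and guards ends against recombination, had 9.40, 9.40, 8.95, 9.12 and 9.24 on powdered chow, against 8.48, 8.92, 9.07, 8.90 and 8.94 on pelleted chow. The groups overlapped at powdered chow animal 108 and pelleted chow animal 09, and the difference of 0.36 (SE 0.11) passed the test (limma adjusted p = 0.0194). The call was lost without powdered chow animal 87 (adjusted p = 0.0504) or 88 (adjusted p = 0.051). Pot1b, which limits trimming of the chromosome end by nucleases, had 8.54, 8.35, 8.40, 8.66 and 8.65 on powdered chow, against 8.67, 8.09, 8.49, 8.46 and 8.45 on pelleted chow. Its difference was 0.09 (SE 0.10, limma adjusted p = 0.499), so Pot1a and Pot1b each overlapped between the diets.

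Genes of proteins that assemble telomerase or process Terc had differences between -0.25 and 0.65. The roles of these proteins were worked out mainly in human cells. Of 18 genes measured, 6 rose and 2 fell at the same limma threshold, beside 21.2% of all probe sets higher and 21.8% lower. Their median difference was 0.13, beside -0.02 over all probe sets. Pinx1, an inhibitor of telomerase that also binds Terf1, rose by 0.65 (SE 0.06, limma adjusted p = 2.64e-06), with values of 9.06 to 9.27 on powdered chow and 8.45 to 8.65 on pelleted chow. Tgs1, which trimethylates the cap of Terc, rose by 0.47 (SE 0.06, limma adjusted p = 5.67e-05). Ptges3 (p23), an Hsp90 cochaperone used in telomerase assembly, rose by 0.41 (SE 0.08, limma adjusted p = 0.00124). Exosc10, the nuclear exosome nuclease that degrades unprotected Terc, had a difference of -0.25 (SE 0.05, limma adjusted p = 0.00178), and Tep1, a telomerase-associated protein, one of -0.17 (SE 0.05, limma adjusted p = 0.0198). The Tep1 call was lost without powdered chow animal 87 (adjusted p = 0.0508) or 88 (adjusted p = 0.053).

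Among the genes counted above, a further 6, of H/ACA particle or telomerase assembly and Terc trimming, were named after their values were seen. Gar1, which takes the place of Naf1 in the mature particle, had a difference of -0.16 (SE 0.11, limma adjusted p = 0.267), which passed without pelleted chow animal 11 at -0.27 (adjusted p = 0.00548), and Naf1 one of 0.21 (SE 0.12, limma adjusted p = 0.169). Shq1, the chaperone of dyskerin, differed by 0.13 (SE 0.07, limma adjusted p = 0.141). Wrap53 (TCAB1), which brings telomerase to Cajal bodies, differed by -0.07 (SE 0.05, limma adjusted p = 0.317), and Parn, the nuclease that trims the 3′ end of Terc, by 0.14 (SE 0.08, limma adjusted p = 0.187). Ruvbl2, an ATPase used in assembling H/ACA particles, rose by 0.18 (SE 0.06, limma adjusted p = 0.0349), a call that was lost when any of 7 arrays was left out (powdered chow animals 87, 88, 111 and 115, pelleted chow animals 05, 09 and 11), with an adjusted p of 0.0527 to 0.0856. Of the genes of the 4 core H/ACA proteins, Dkc1, Nhp2 and Nop10 were thus higher without overlap, beside 16.9% of all probe sets. Gar1 went the other way and passed, as lower, only when pelleted chow animal 11 was left out.

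The CST complex and polymerase alpha-primase fill in the strand opposite to that made by telomerase. Of the 7 genes, 5 rose and 1 fell, with a median difference of 0.37, beside 21.2% of all probe sets higher and 21.8% lower. Prim1, the catalytic primase subunit, rose by 0.98 (SE 0.09, limma adjusted p = 1.85e-06), Stn1 by 0.70 (SE 0.06, limma adjusted p = 1.07e-06) and Pola1, the polymerase subunit, by 0.60 (SE 0.09, limma adjusted p = 1.26e-04). Ten1, the partner of Stn1 in CST, had a difference of -0.35 (SE 0.06, limma adjusted p = 5.49e-04).

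Of 21 genes for telomere replication, end processing and repair, 14 rose and 3 fell, beside 21.2% of all probe sets higher and 21.8% lower. The median difference of the 21 was 0.36. Exo1, a nuclease that resects ends, rose by 0.89 (SE 0.07, limma adjusted p = 7.04e-07), and Xrcc6 (Ku70), an end-binding protein, by 0.52 (SE 0.06, limma adjusted p = 1.63e-05). Sirt6, a deacetylase of telomeric histone H3, moved the other way with a difference of -1.22 (SE 0.07, limma adjusted p = 3.47e-08), and its values of 9.26 to 9.46 on powdered chow lay far below 10.45 to 10.77 on pelleted chow. Mus81, a structure-specific nuclease, had a difference of -0.45 (SE 0.06, limma adjusted p = 5.32e-05), and Dclre1b (Apollo), the nuclease that Terf2 recruits, one of -0.17 (SE 0.06, limma adjusted p = 0.0264). The Dclre1b call was lost when any of 5 arrays was left out (powdered chow animals 87, 88 and 115, pelleted chow animals 05 and 07), with an adjusted p of 0.0525 to 0.0704.

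Of 12 genes of telomeric chromatin, 5 rose and 4 fell, with a median of -0.02, beside 21.2% of all probe sets higher and 21.8% lower. The paired histone methyltransferases of heterochromatin moved in opposite directions. Suv39h2 rose by 0.72 (SE 0.09, limma adjusted p = 3.47e-05), while Suv39h1 had a difference of -0.60 (SE 0.05, limma adjusted p = 2.05e-06). Atrx, which deposits histone H3.3 at telomeres, rose by 0.62 (SE 0.06, limma adjusted p = 5.43e-06). Over the 5 lists of telomere genes outside the 10, 31 of 60 rose (51.7%), 10 fell (16.7%) and 19 did not pass, with a median of 0.21.

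**Figure D3:**
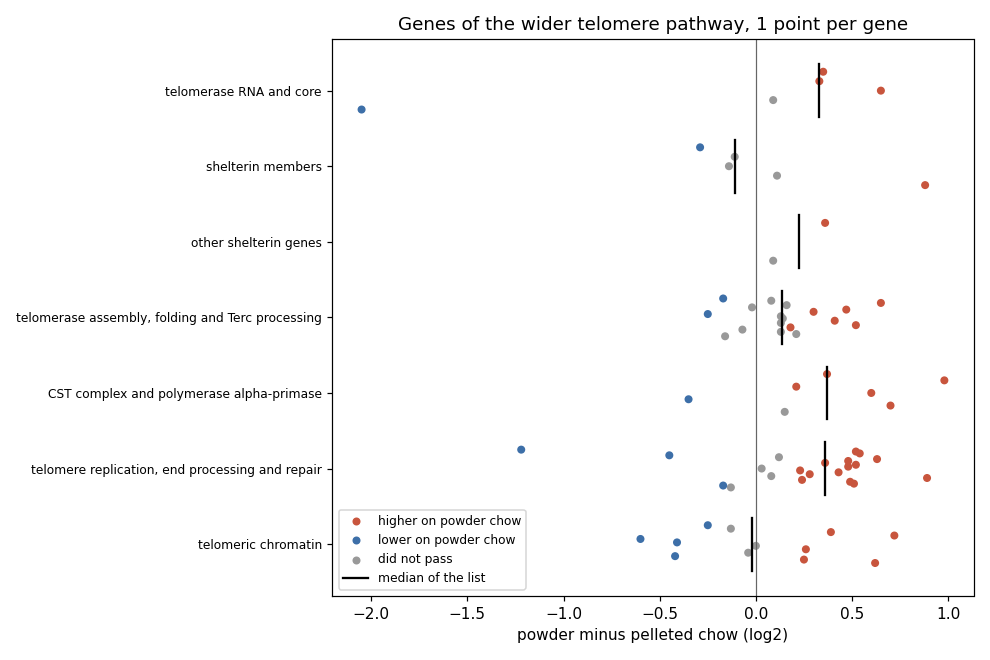
Diet difference (powdered minus pelleted chow, log2) of each gene of 7 telomere lists, 1 point per gene, coloured by whether limma called it higher or lower on powdered chow at an adjusted p under 0.05, with a black bar for the median of the list. Terc at -2.05 lies furthest left of all points, followed by Sirt6 at -1.22, and Prim1 at 0.98 lies furthest right.

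Most measured markers of dividing cells were higher on powdered chow, as were Dkc1 and Terf1. Of 10 proliferation markers measured, 7 rose and 0 fell, beside 21.2% of all probe sets higher and 21.8% lower. Their median difference was 0.46, and their mean level was 9.14 to 9.29 on powdered chow and 8.57 to 8.95 on pelleted chow. Mki67, a mark of cycling cells, rose by 1.26 (SE 0.11, limma adjusted p = 1.41e-06). The pelleted chow animals 05 and 07 had the highest marker means of their diet (8.95 and 8.91). Without both, the difference was 0.70 for Dkc1, 0.93 for Terf1 and -2.02 for Terc. Over all arrays it was 0.65 (SE 0.07), 0.88 (SE 0.07) and -2.05 (SE 0.09). Of 8 blood markers 3 rose and 0 fell (6 rose without pelleted chow animals 05 and 07), with mean levels of 7.36 to 7.58 on powdered chow and 6.73 to 7.43 on pelleted chow. Whether dividing cells or blood take part in the differences of the 10 genes was not tested.

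Most other RNAs with an H/ACA fold were higher on powdered chow. Of 16 measured H/ACA snoRNAs (the Snora genes), 9 rose and 1 fell, beside 21.2% of all probe sets higher and 21.8% lower. Their median difference was 0.42. Snora23 rose by 1.17 (SE 0.09, limma adjusted p = 3.52e-07), with 9.75 to 9.91 on powdered chow and 8.43 to 8.90 on pelleted chow. Snora62 rose by 0.83 (SE 0.08, limma adjusted p = 1.84e-06) and Snora16a by 0.78 (SE 0.10, limma adjusted p = 3.40e-05). Snora7a was the one that fell, with a difference of -0.62 (SE 0.13, limma adjusted p = 0.00156). Among C/D box snoRNAs (the Snord genes), which use another set of proteins, 23 of 31 rose and 4 fell, with a median of 1.05. Their differences ran from -1.64 to 4.42. Snord22 rose by 4.42 (SE 0.12, limma adjusted p = 9.66e-11), Snord61 by 4.24 (SE 0.10, limma adjusted p = 7.70e-11) and Snord16a by 3.34 (SE 0.09, limma adjusted p = 9.66e-11). Each of these differences was larger in size than that of Terc (-2.05). Near-identical snoRNA copies, such as Snora73a and Snora73b, can share probes.

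**Figure D4:**
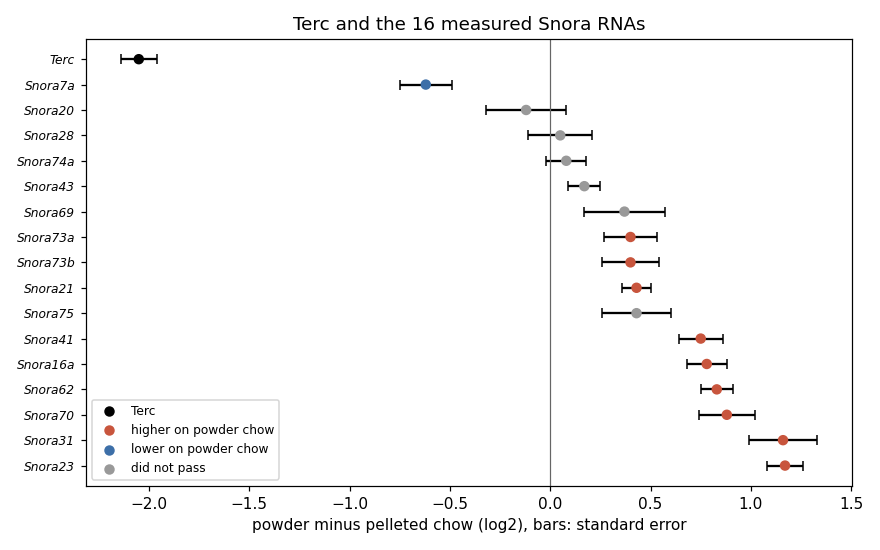
Diet difference (powdered minus pelleted chow, log2) of Terc (black) and of the 16 measured Snora RNAs, with standard errors, coloured by the limma call at an adjusted p under 0.05. Terc at -2.05 lies left of every Snora RNA, which run from -0.62 (Snora7a) to 1.17 (Snora23).

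Other stable RNAs made without a poly(A) tail moved in both directions. Of 6 measured, 3 rose and 2 fell, beside 21.2% of all probe sets higher and 21.8% lower. Rmrp, the RNA of a ribonuclease that processes ribosomal RNA, rose by 0.72 (SE 0.06, limma adjusted p = 1.09e-06), and Rny1, a Y RNA, by 2.29 (SE 0.21, limma adjusted p = 1.89e-06). Rnu12, a minor spliceosomal RNA, had a difference of -0.45 (SE 0.11, limma adjusted p = 0.0048), and Rny3 one of -0.20 (SE 0.07, limma adjusted p = 0.0262), a call that was lost when any of 4 arrays was left out (powdered chow animals 87 and 88, pelleted chow animals 05 and 15), with an adjusted p of 0.0564 to 0.071.

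Genes described as regulators of the telomerase genes moved in both directions, 7 of 14 rising and 3 falling, with a median of 0.16. Over all probe sets, 21.2% were higher and 21.8% lower. Mycn, a transcription factor of the Myc family that activates Tert, had a difference of -0.49 (SE 0.06, limma adjusted p = 2.23e-05), and its partner Max one of -0.53 (SE 0.06, limma adjusted p = 1.59e-05). Hif1a, the hypoxia-response factor, had one of -0.19 (SE 0.06, limma adjusted p = 0.0194), and its call was lost without pelleted chow animals 05 and 07 together (adjusted p = 0.0628). Mdm2, the ubiquitin ligase of p53, rose by 0.63 (SE 0.06, limma adjusted p = 5.12e-06), and Rb1, the retinoblastoma protein, by 0.50 (SE 0.06, limma adjusted p = 1.59e-05).

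The probe sets whose pattern over the 10 arrays was most like that of Terc were found by the root mean square difference of log2 values, each centred on its own mean. The 5 closest with a symbol were Chmp1a (0.207), Psmb3 (0.225), Polr2f (0.315), Rybp-ps (0.325) and Ap2m1 (0.325), against a median of 1.030 over the other probe sets with a symbol. All 5 were lower on powdered chow without overlap, which the measure favours, since it follows the diet difference of Terc. Chmp1a, a subunit of the membrane-remodelling ESCRT-III complex, had 8.91 to 9.14 on powdered chow and 10.75 to 11.03 on pelleted chow. Psmb3, a proteasome subunit, had 10.39 to 10.61 on powdered chow and 12.19 to 12.25 on pelleted chow. For Tert the 5 closest were Farp2 (0.035), Hrg (0.035), Trav7-1 (0.038), Ak9 (0.039) and Coq9 (0.039), against a median of 0.169. Each of those 5 overlapped between the diets, which the measure favours, since Tert itself varied little over the arrays. Hrg, Trav7-1 and Ak9 lay under the lower quartile on all 10 arrays. Ak9 was called higher by limma, with a difference of 0.15 (SE 0.06), a call that was lost in 11 of the 17 alternatives.

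The nearest measured genes around Terc and annotated genes that overlap another of the 10 were read as well. On either side of Terc, these were Fcgr1 (120468 bases away) and BC107364 (18955 bases away). They had differences of 0.11 (SE 0.09, limma adjusted p = 0.374) and -0.16 (SE 0.09, limma adjusted p = 0.182), so neither passed the test. The closest annotated genes, the tRNA gene n-THgtg6 and the snRNA gene Gm24136, were not measured. Gmpr2, whose annotated span covers all of Tinf2, rose by 0.59 (SE 0.06, limma adjusted p = 5.07e-06), against -0.14 for Tinf2. Rmnd5b, which overlaps Nhp2, had a difference of -0.68 (SE 0.08, limma adjusted p = 2.32e-05), opposite in sign to Nhp2. Mpp1, which overlaps Dkc1, differed by -0.15 (SE 0.08, limma adjusted p = 0.154, and 0.0359 without pelleted chow animal 05). Acd overlaps Carmil2, with a difference of -0.27 (SE 0.06, limma adjusted p = 0.00252), and Pard6a, with one of -0.10 (SE 0.07, limma adjusted p = 0.245). Whether probes of these overlapping genes also catch RNA of their partner was not tested.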

How the data were processed

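Total RNA from the embryonic forebrains was labelled with the WT PLUS kit and hybridized to Affymetrix arrays. The authors deposited log2 expression values, normalized by RMA (robust multichip averaging) on version 15 of the custom MBNI probe definitions, and no raw array files were used. Probe sets carry Entrez IDs, of which 20768 of 21225 were given a symbol. The genome build is not given in the sources used here, so the genes behind the probe sets are placed by chromosome only. Overlaps and distances from Terc are those of the gene annotation. Promoter coordinates are those of the RefSeq table, on GRCm38.p6. No detection calls were used, and the number of arrays limits the precision, with a median standard error of 0.0723. Embryos came from separate litters.

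Diets were compared with limma 3.58.1 in R 4.3.3 (lmFit and eBayes, no covariates, Benjamini-Hochberg adjustment over all probe sets), as powdered minus pelleted chow. Genes were called at an adjusted p under 0.05, or at the limits of the methods (raw p under 0.001, adjusted p under 0.01, fold change above 1.5). The fit was tested on simulated data. Tables and figures used Python 3.11.15 with pandas 2.3.3, numpy 2.4.6 and matplotlib 3.10.9.

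The genes and the 21 lists were chosen with earlier results of these data known. Genes to be named were drawn from the 10 genes, Pot1b and Terf2ip, the 3 lowest limma p of each list, up to 3 called genes against the list's majority, the neighbours of Terc, snoRNAs inside a gene, and the 5 probe sets most like Terc and Tert. Not all of these are named in the text, and some lists are given by counts only. Genes overlapping the 10 and 6 further assembly proteins were added with their values in view. The alternatives tried comprised the methods' t-test, a trended robust prior, array weights, quantile normalization, median scaling, a filter on dim probe sets (mean under the lower quartile), leaving out each array, and leaving out pelleted chow animals 05 and 07 together.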

Additional observations from a re-analysis of the deposited data

Results flagged for a closer look

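Single embryos that stood apart from the other 4 of their diet were sought in 24 sets of 5 values, those of the 10 genes, Pot1b and Terf2ip on each diet, and 3 were found. Chance marks about 1 in 20 such sets. Dkc1 in powdered chow animal 108 was 9.30, while the next value was 9.44 and the highest 9.47. Dkc1 in pelleted chow animal 11 was 8.53, while the next value was 8.80 and the highest 8.86. Terf2ip in pelleted chow animal 05 was 8.48, while the next value was 8.90 and the highest 9.07, and without that embryo its difference was 0.26 (limma adjusted p = 0.0321), against 0.36 with it.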

How the results depend on the processing

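All 10 genes kept the direction of their difference under all 17 alternatives. The methods' t-test, the trended robust prior and the filter on dim probe sets leave the difference itself unchanged, so they bear on the calls only. The ranges were -2.10 to -1.97 for Terc, 0.07 to 0.12 for Tert, 0.59 to 0.70 for Dkc1, 0.29 to 0.36 for Nhp2, 0.31 to 0.41 for Nop10, 0.84 to 0.93 for Terf1, 0.08 to 0.13 for Terf2, -0.17 to -0.10 for Tinf2, -0.13 to -0.05 for Pot1a and -0.33 to -0.23 for Acd. Tinf2 passed an adjusted p of 0.05 in 3 of them, with array weights, with quantile normalization and without pelleted chow animal 05, which makes 3 of the 10 genes lower in place of 2. The other calls of the 10 did not change. Of 1609 values of the other named genes, 67 lost the call, in 11 genes (Terf2ip, Tep1, Ruvbl2, Dclre1b, Terb1, Hif1a, Rny3, En2, Tubb3, Otx2 and Ak9), and 8 gained it, in 6 genes (Gar1, Egr2, Farp2, Hrg, Coq9 and Mpp1). Terf2ip was also lost by the methods' t-test (adjusted p = 0.0596) and without pelleted chow animals 05 and 07 together (adjusted p = 0.0733), which also ended the calls of Tep1 (0.0569), Ruvbl2 (0.0769), Dclre1b (0.134) and Rny3 (0.0658). Without those 2 animals, 6 blood markers rose in place of 3. The median difference over all probe sets was -0.0243 as deposited, -0.0173 after quantile normalization and -0.0311 after median scaling. No paired analysis was possible because the groups share no replicate numbers. Without detection calls, no lower limit of detection could be set for Terc on powdered chow.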

Other observations

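Genes that p53 activates, which include targets of the response to bare telomeres, were called higher in 4 of 13 cases and lower in 4, or 30.8% each way, beside 21.2% higher and 21.8% lower over all probe sets, and their median difference was 0.09, beside -0.02. Zmat3, an RNA-binding protein of the p53 response, rose by 0.57 (SE 0.06, limma adjusted p = 3.68e-06). Phlda3, an inhibitor of Akt, had a difference of -0.95 (SE 0.10, limma adjusted p = 4.43e-06). Of 6 genes that act at telomeres in meiosis, 3 lay under the lower quartile on every array. Terb1, which is among those 3, had a difference of 0.17 (SE 0.05, limma adjusted p = 0.021), and Sun1, a nuclear envelope protein, one of -0.19 (SE 0.05, limma adjusted p = 0.00779). The Terb1 call was lost in 5 of the 17 alternatives: with a trended robust prior (adjusted p = 0.0638), after quantile normalization (0.0588), without pelleted chow animal 09 (0.0563), without powdered chow animal 88 (0.0517) and without pelleted chow animals 05 and 07 together (0.0689).

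The counts of cell type markers stand beside 21.2% of all probe sets higher and 21.8% lower. Among them, 4 of 8 forebrain genes rose and 0 fell, led by Otx1 with a rise of 0.46 (SE 0.08, limma adjusted p = 4.97e-04). Of 8 radial glia markers 1 rose and 3 fell, of 9 neuron markers 3 rose and 1 fell, of 7 microglia markers 3 rose and 2 fell, of 6 endothelial markers 3 rose and 1 fell, of 6 meninges markers 4 rose and 0 fell, and of 5 choroid plexus markers 0 rose and 3 fell. The neuron marker that fell, Tubb3, lost its call in 10 of the 17 alternatives, with an adjusted p of 0.0552 to 0.204, and the choroid plexus marker Otx2 in 5, with an adjusted p of 0.0502 to 0.0701. Of 7 hindbrain and cord markers 0 rose and 2 fell, Gbx2 with a difference of -0.31 (SE 0.08, limma adjusted p = 0.00467) and En2 with one of -0.77 (SE 0.28, limma adjusted p = 0.0408). The En2 call was lost when any of 6 arrays was left out (powdered chow animals 87, 88 and 115, pelleted chow animals 07, 09 and 15), with an adjusted p of 0.0661 to 0.0997, by the methods' t-test (0.12), with a trended robust prior (0.0712) and after quantile normalization (0.06). Their part in the differences of the telomere genes was not tested.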
